A study of Mus musculus with 4 samples.

Results

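Macrophages release growth factors that act on the cells around them, and they carry receptors for some of these factors. The 10 genes described here were chosen by name, with earlier results of these data known. They are macrophage growth factors and receptors of the VEGF family: Igf1, Pdgfa, Pdgfb, Pdgfc, Vegfb, Vegfc, Tgfb1, Hbegf, Flt1 and Kdr. They were read from 18 probes, and they stand among 23167 genes with a symbol that could be compared on the arrays. RNA came from bone marrow-derived macrophages (BMDMs) of 10-week-old C57BL/6J mice, differentiated for 6 days with supernatant of L929 cells, a mouse fibroblast line whose medium supplies M-CSF, and then stimulated for 2 days. Wild-type cells received IFN-γ at 20 ng per ml with LPS at 100 ng per ml (M1), 50 ng per ml of IL-4 (M2), or this IL-4 together with 250 nM Torin1, an inhibitor of the kinase mTOR (Torin1-treated M2). Cells of the genotype labelled p18 (2400001E08Rik) -/- received IL-4 at the same concentration (Lamtor1-deficient M2). That gene is Lamtor1, a subunit of the Ragulator complex that helps to activate mTORC1 on lysosomes, and per the study's methods it was deleted with LysM-Cre, which is active in myeloid cells, granulocytes included. Each condition was measured on 1 array, so no difference has a replicate check and no test was possible. The comparisons with M2 ask how loss of Lamtor1, inhibition of mTOR or the other polarization goes with these genes, and they share the single M2 array.

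IGF-1 is a hormone-like factor that promotes growth and survival of cells, and its action is tuned by a receptor kinase and by binding proteins in the surrounding fluid. PDGF chains form dimers that drive mesenchymal cells to divide and migrate. VEGF ligands steer blood and lymph vessel growth: VEGF-B binds FLT1, and VEGF-C binds FLT4 and, after processing, KDR. FLT1 is found on monocytes and macrophages as well as on endothelium, whereas KDR is the main signalling receptor of endothelial cells. TGF-β1 is secreted in a latent form that must be activated outside the cell, and HB-EGF is shed from the membrane to activate the EGF receptor. IL-4-polarized macrophages are known as a source of IGF-1 and PDGF in tissue repair.

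The array reads each gene with oligonucleotides of 60 bases that match the sense strand of a transcript. Several results below turn on which part of a transcript was read, so the first 30 bases of the probes concerned are given from 5′ to 3′, with positions on the mm9 build as annotated on the array. No base is capitalized, since the whole probe hybridizes.

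Kdr A_55_P2094469, chr5:76330395-76330454, minus strand, base 4291 of its transcript: tgtttaaatggaagtggtcctgtcccggct

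Kdr A_51_P316553, chr5:76329309-76329368, minus strand, base 5377 of the same transcript: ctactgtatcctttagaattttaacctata

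Flt1 A_51_P398723, chr5:148373791-148373850, minus strand, base 6201 of its transcript: aagtaaagaaaagctatcgggattctctgg

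Flt1 A_52_P405145, chr5:148465976-148466035, minus strand, base 1881 of a placental cDNA clone: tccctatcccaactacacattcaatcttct

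Igf1 A_55_P2085984, chr10:87393561-87393620, plus strand, base 889 of transcript variant 1: cctaccaaataacaataataagtccaataa

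Igf1 A_55_P2031631, chr10:87393581-87393640, plus strand, base 909 of transcript variant 1: agtccaataacattacaaagatgggcattt

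Igf1 A_55_P2031636, chr10:87395924-87395983, plus strand, base 3252 of transcript variant 1: agaaatgtaaatggaataagaggtcagctg

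Igf1 A_55_P2085974, chr10:87399581-87399640, plus strand, base 6909 of transcript variant 1: ctcctgattgtatttgaagtggttattcaa

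Igf1 A_55_P2085979, chr10:87378456-87378515, plus strand, base 1027 of transcript variant 2: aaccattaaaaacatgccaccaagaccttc

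The first pair of Igf1 probes overlaps, so their values are not independent. None of the 18 member probes shared a run of 16 bases with a probe named for another gene. GC content was 55% for Kdr A_55_P2094469 and 35% for Kdr A_51_P316553.

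Values are processed signals, which the scanner software had corrected for background, divided by the 75th percentile of the same array. They compare arrays for 1 probe and say nothing about the amount of one gene against another. That percentile was a signal of 287 for M1, 595 for M2, 536 for Lamtor1-deficient M2 and 470.0 for Torin1-treated M2. Between 50.9% and 55.4% of probes were well above background, and no spot was saturated. From probes spotted at least 8 times, the technical SD of a log2 ratio to M2 was 0.088 for Lamtor1-deficient M2, 0.093 for Torin1-treated M2 and 0.0998 for M1. For probes not well above background it was 0.267, 0.431 and 0.398. It covers spots of 1 array and leaves out any difference between cultures or mice. The choice of scale matters most for M1: over all genes its median log2 ratio to M2 was 0.74, and shifting the arrays to their medians instead lowered every M1 ratio by 0.82 and every Torin1 ratio by 0.25, while Lamtor1 ratios moved by 0.06. The share of changed genes that were higher in M1 was 61.3% with the 75th percentile and 32.7% with the median. For Torin1 the shares were 54.8% and 38.8%.

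The targeted gene followed its label. Normalized signal of Lamtor1 was lower in Lamtor1-deficient M2 than in M2 by 5.42 on the log2 scale, and the log2 ratios of Torin1-treated M2 and M1 were 0.18 and -0.37. Markers of other cell types were not equal between arrays. The 6 neutrophil markers on the array summed to 90.5 in M2, against 4.41 in M1, 6.30 in Lamtor1-deficient M2 and 5.87 in Torin1-treated M2, so the shared M2 array stands apart. The 7 fibroblast markers summed to 16.2 in M1, 43.5 in M2, 56.7 in Lamtor1-deficient M2 and 15.5 in Torin1-treated M2. The 9 endothelial markers summed to 6.98, 13.7, 51.0 and 54.1 in the same order, largely through Vwf, while Tek and Tie1 were not well above background on any array. The 6 platelet and megakaryocyte markers summed to 1.93, 15.6, 61.4 and 55.5, largely through Itgb3 in the IL-4 conditions, with Gp1ba not well above background on any array. Gp6 was the larger part in M1, at 0.939 against 0.824 for Itgb3, and was at least 24.2-fold higher there than in M2. The 6 lymphocyte markers summed to between 2.01 and 4.08, largely through Cd3e. Cd3d and Cd3g were well above background in Lamtor1-deficient M2 alone, at least 4.35-fold and 1.79-fold above M2, and the median log2 level of the list was -3.39 there against -5.54 in M2. All 8 macrophage markers were well above background on every array and summed to between 475 and 799, with Csf1r the largest part of each sum. Single markers went both ways. Fcgr1 was 31.1-fold lower with Lamtor1 loss and 24.4-fold lower with Torin1, and Emr1 was 5.94-fold and 7.02-fold lower, whereas Cd68 had log2 ratios of 0.55 and 0.70, Mertk 0.34 and 0.90, and Lyz2 0.70 and 0.12. The part of these cells in the results below was not tested, and fewer cells of a type cannot be told apart from less RNA per cell.

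By the brightest probe of each gene, 5 of the 10 genes differed at least 2-fold between Lamtor1-deficient M2 and M2, where 17.5% of all genes did. Vegfb was the 1 gene that was higher, with 8.86% of all genes higher, and 4 were lower, with 8.67% of all genes lower. Torin1-treated M2 differed from M2 in 7 genes, against 26% of all genes. Again Vegfb was the 1 gene that was higher (14.3% of all genes), and 6 were lower (11.8%). M1 differed from M2 in 8 genes, against 49.8% of all genes, with 2 higher (30.5%) and 6 lower (19.3%). On the median scale the M1 split was 0 higher and 8 lower, since Kdr and Hbegf dropped below 2-fold and Pdgfb and Pdgfc passed it. The median log2 ratio of the 10 genes was -0.18 with Lamtor1 loss, -1.28 with Torin1 and -1.25 in M1, beside medians over all genes of 0.04, -0.05 and 0.74. At 3-fold the counts were 3, 4 and 3, against 9.05%, 12.6% and 32.4% of all genes. Reading Kdr with its other probe, a choice made after its values were seen, gave 6, 8 and 8 genes. The list was chosen with earlier results of these data known. All 10 genes were well above background on at least 1 array of each comparison, whereas the shares of all genes include dim ones. The counts therefore cannot be read as an excess over all genes.

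**Figure D1:**
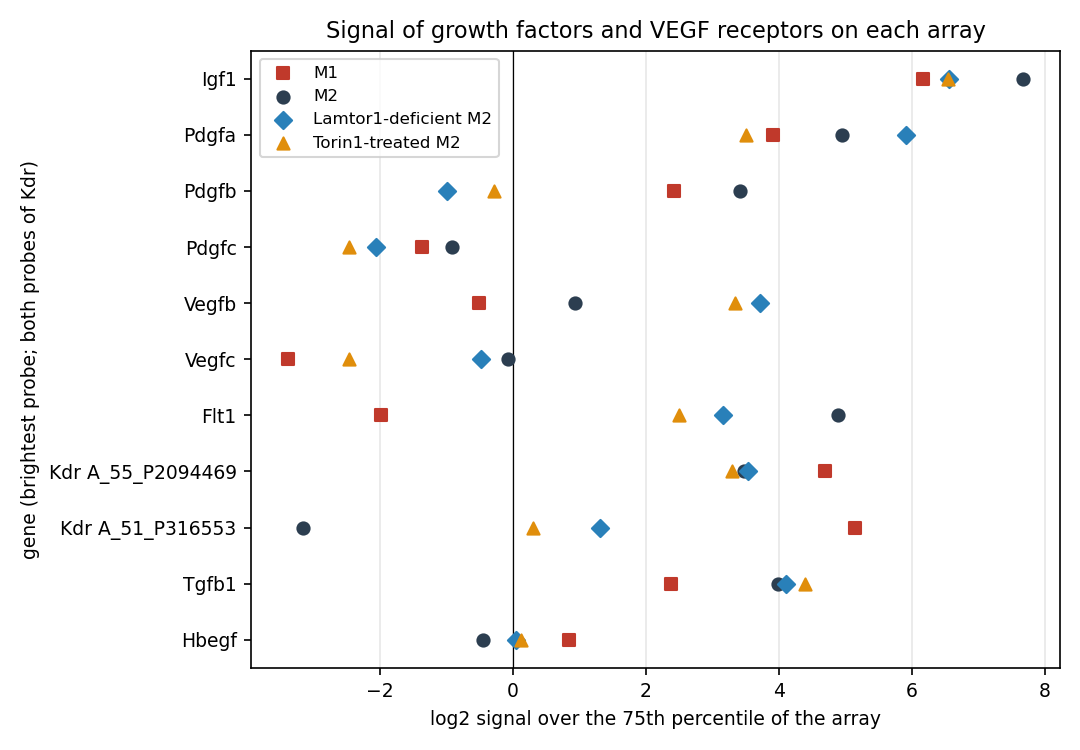
Log2 signal over the 75th percentile of each array (x axis) for the brightest probe of each gene and both probes of Kdr (y axis), with 1 point per array and no error bar because each condition has 1 array. M2 holds the highest point for Igf1, Pdgfb, Pdgfc, Vegfc and Flt1, and the lowest for Hbegf and for Kdr A_51_P316553.

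Igf1 was lower on all its probes in the 3 other conditions than in M2. Its brightest probe, A_55_P2031631, gave a normalized signal of 71.7 in M1, 204 in M2, 94.6 in Lamtor1-deficient M2 and 93.8 in Torin1-treated M2. M2 was thus 2.16-fold above Lamtor1-deficient M2, 2.18-fold above Torin1-treated M2 and 2.85-fold above M1, and the Lamtor1-deficient and Torin1-treated arrays differed by 0.01 on the log2 scale, less than the technical SD.

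The difference was larger at both downstream probes of transcript variant 1 than at the upstream ones. At base 3252, A_55_P2031636 read 0.177 in M1, 9.87 in M2, 1.73 in Lamtor1-deficient M2 and 1.71 in Torin1-treated M2. At base 6909, A_55_P2085974 read 0.417 in M1, 79.8 in M2, 16.4 in Lamtor1-deficient M2 and 11.2 in Torin1-treated M2. M1 was therefore 55.6-fold below M2 at the first of these positions and 191-fold below at the second, against 2.85-fold at base 909. After normexp correction the first of these log2 ratios was -4.82 in place of -5.80. For Lamtor1-deficient M2 the folds were 5.71 and 4.86, and for Torin1-treated M2 5.77 and 7.13. A_55_P2085979, for the shorter transcript variant 2, gave 4.80 in M1, 12.4 in M2, 4.04 in Lamtor1-deficient M2 and 5.31 in Torin1-treated M2. This variant was lower than in M2 by 3.06-fold, 2.33-fold and 2.58-fold in Lamtor1-deficient M2, Torin1-treated M2 and M1, so its M1 ratio lay near that of the upstream probes.

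The log2 ratio of M1 to M2 at base 6909 minus that at base 909 was -6.07. Of 3681 pairs of probes that the annotation places on the same transcript, with both well above background on both arrays, 0.136% lay at least that far apart. With Lamtor1 loss the gap was -1.17, a size reached by 3.91% of 4069 pairs, and with Torin1 it was -1.71, reached by 3.34% of 4071 pairs. Dividing the ratios of 2 probes on the same array removes the scale of the array, so these gaps do not depend on the percentile used. The summed fibroblast markers, of cells that also make IGF-1, were lower in M1 and Torin1-treated M2 than in M2 and higher in Lamtor1-deficient M2, although Dcn went the other way in M1, with a log2 ratio of 2.55.

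**Figure D2:**
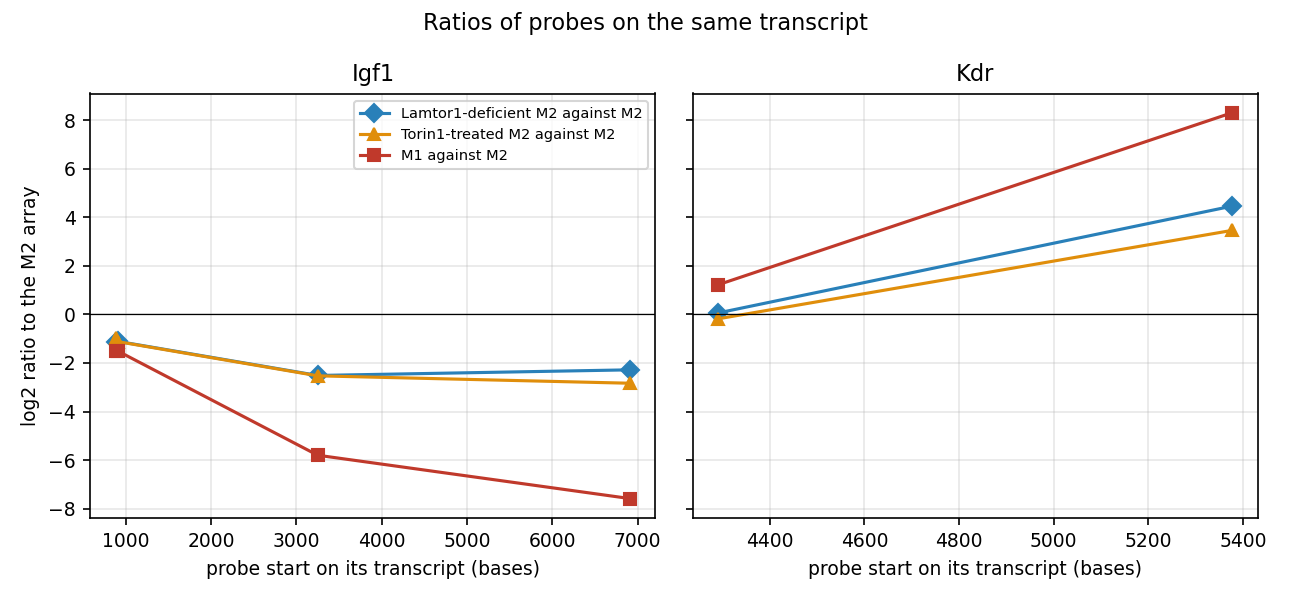
Log2 ratio to the M2 array (y axis) against the base of the transcript at which each probe starts (x axis), for the 4 probes of Igf1 transcript variant 1 and the 2 probes of Kdr; lines join probes of 1 comparison and there are no replicates. For Igf1 the M1 ratio moves from -1.51 at base 909 to -7.58 at base 6909, and for Kdr all 3 ratios are larger at base 5377 than at base 4291.

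The PDGF chains did not move together. Pdgfb, whose product binds both PDGF receptors, had the largest difference in IL-4-treated cells among the ligands. A_55_P2047310 read 5.38 in M1, 10.7 in M2, 0.503 in Lamtor1-deficient M2 and 0.822 in Torin1-treated M2. It was 21.2-fold lower with Lamtor1 loss, 13.0-fold lower with Torin1 and 1.98-fold lower in M1, where the log2 ratio of -0.99 became -1.81 on the median scale. The upstream probe A_55_P1974441 read 0.116 in M1 and 0.287 in M2 and was not well above background in the other conditions, which makes it at least 7.66-fold lower with Lamtor1 loss and at least 8.55-fold lower with Torin1. After normexp background correction its log2 ratios were smaller, at -1.61 and -1.35, and that of M1 was -0.37 against -1.30. Both probes thus gave the same direction.

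Pdgfa, which encodes the chain that binds PDGFRα, was the gene on which Lamtor1 loss and Torin1 gave opposite signs by more than 3 technical SDs each. A_55_P2007470 read 15.0 in M1, 31.0 in M2, 60.2 in Lamtor1-deficient M2 and 11.4 in Torin1-treated M2. Lamtor1-deficient M2 was 1.94-fold above M2, just short of the 2-fold mark (log2 ratio 0.96, and 1.02 on the median scale), and Torin1-treated M2 was 2.73-fold below it. The other probe starts 9 bases downstream on the same transcript and gave log2 ratios of 0.96 and -1.43. Its agreement adds little, since the probes share most of their bases.

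Pdgfc, the chain released with a CUB domain that must be cleaved off, was dimmer but well above background on every array. It read 0.389 in M1, 0.532 in M2, 0.240 in Lamtor1-deficient M2 and 0.182 in Torin1-treated M2. It was 2.22-fold lower with Lamtor1 loss and 2.92-fold lower with Torin1. The first of these fell short of 2-fold under normexp background correction, with a log2 ratio of -0.81. The log2 ratio of M1 was -0.45 on the 75th percentile and -1.27 on the median, past the 2-fold mark.

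Vegfb and Vegfc went opposite ways with Torin1, whereas with Lamtor1 loss Vegfc stayed short of 2-fold. Vegfb, whose product binds FLT1 and not KDR, read 0.703 in M1, 1.92 in M2, 13.2 in Lamtor1-deficient M2 and 10.2 in Torin1-treated M2. It was 6.87-fold higher with Lamtor1 loss and 5.31-fold higher with Torin1, and 2.73-fold lower in M1. Like Pdgfc, Vegfc and Hbegf, it was read by 1 probe with 1 spot per array. Both conditions in which Lamtor1 or mTOR activity was reduced were thus above both wild-type arrays without inhibitor.

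Vegfc, the ligand for lymphatic growth, read 0.0962 in M1, 0.956 in M2, 0.718 in Lamtor1-deficient M2 and 0.181 in Torin1-treated M2. Torin1-treated M2 was 5.28-fold below M2 and M1 was 9.93-fold below it, a log2 ratio of -3.31 that was -1.99 after normexp correction. Lamtor1-deficient M2 was 1.33-fold below M2, short of 2-fold. Vegfc was therefore nearer to M2 with Lamtor1 loss than with Torin1.

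Flt1, the receptor of VEGF-B and placental growth factor, was highest in M2. A_51_P398723 read 0.253 in M1, 29.7 in M2, 8.95 in Lamtor1-deficient M2 and 5.63 in Torin1-treated M2. M2 was 118-fold above M1, 5.28-fold above Torin1-treated M2 and 3.32-fold above Lamtor1-deficient M2. The log2 ratio of M1 was -6.88, and -6.16 after normexp correction. The 4 levels were all separated by more than 3 technical SDs, in the order M2, Lamtor1-deficient M2, Torin1-treated M2 and M1. The second probe, A_52_P405145, matches a placental cDNA and lies upstream on the minus strand, in the 5′ direction of the gene. Its raw signals were 15.6 in M1, 6.22 in M2, 10.7 in Lamtor1-deficient M2 and 9.63 in Torin1-treated M2. It was not well above background on any of them, so no ratio is given, and the Flt1 result rests on 1 probe with 1 spot per array.

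The genes whose profile over the 4 arrays lay closest to that of Flt1, out of 12817 genes that every array measured well above background, were Matk, Tacc2 and Mrc1. Distance was Euclidean between log2 values centred on their mean, and it was 0.36 for Matk, 0.84 for Tacc2 and 1.21 for Mrc1. Matk, a kinase related to CSK, had log2 ratios of -1.49 with Lamtor1 loss, -2.39 with Torin1 and -7.15 in M1. Mrc1, the mannose receptor used as an M2 marker, had -1.42, -2.64 and -8.18. The profiles share the same 4 arrays.

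The probes of Kdr disagreed. A_51_P316553, spotted 10 times, read 35.5 in M1, 0.113 in M2, 2.47 in Lamtor1-deficient M2 and 1.24 in Torin1-treated M2. It was 22.0-fold higher than in M2 with Lamtor1 loss, 11.0-fold higher with Torin1 and 315-fold higher in M1. Normexp background correction, which lifts dim signals, gave smaller log2 ratios of 3.49, 2.56 and 7.14, against 4.46, 3.46 and 8.30. Of the 10 M2 spots, 1 was marked an outlier and left out. The processed signal of the M2 spots ran from 58.8 to 172 with that spot included, every one well above background, while the M1 spots ran from 9762 to 10498. Spots of different arrays did not overlap.

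**Figure D3:**
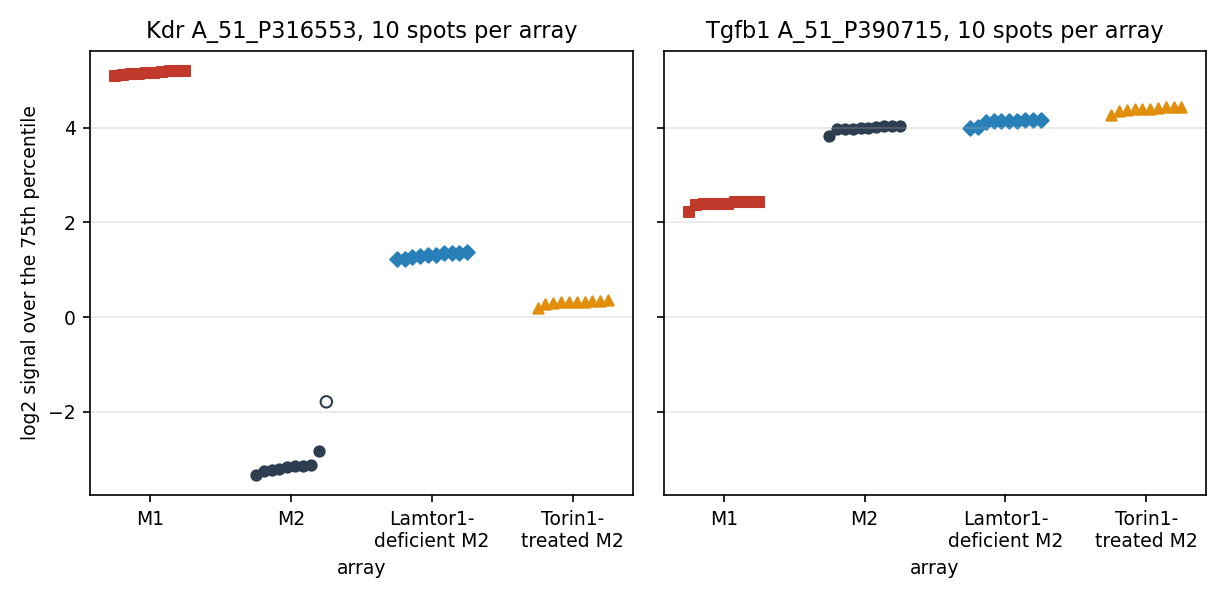
Log2 signal over the 75th percentile (y axis) of each of the 10 spots of the Kdr and Tgfb1 probes on each array (x axis), sorted within an array; the open circle is the M2 spot marked as an outlier and left out of the mean. For Kdr the M1 spots lie at the top and the M2 spots at the bottom, and for Tgfb1 the M1 spots lie below those of the 3 IL-4 conditions.

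A_55_P2094469 lies 1086 bases upstream on the same transcript and has 1 spot per array. It read 26.0 in M1, 11.1 in M2, 11.6 in Lamtor1-deficient M2 and 9.82 in Torin1-treated M2. Its log2 ratios were 0.06 with Lamtor1 loss and -0.18 with Torin1, both within 3 technical SDs, and 1.22 in M1, which became 0.40 on the median scale. Before scaling, its signals were 7450 in M1, 6622 in M2, 6226 in Lamtor1-deficient M2 and 4617 in Torin1-treated M2. The probes' log2 ratios differed by 4.40 with Lamtor1 loss, reached by 0.0737% of same-transcript pairs, by 3.64 with Torin1 (0.197%) and by 7.08 in M1 (0.109%). A higher level of Kdr with Lamtor1 loss and with Torin1 therefore rests on the downstream probe, and the direction of Kdr in these comparisons is uncertain. In M1 both probes were higher than in M2, by sizes that differed widely. The summed endothelial markers were lowest in M1, but Vwf made up 5.91 of 6.98 there and 13.0 of 13.7 in M2. The median log2 level of the list was instead lowest in M2, at -3.41, against -2.92 in M1, -2.89 in Lamtor1-deficient M2 and -2.71 in Torin1-treated M2, and the log2 ratios of Cdh5 and Pecam1 in M1 were 0.74 and 1.01, near the median of all genes. The part of endothelial cells in the Kdr values was not tested.

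The genes nearest to the downstream probe of Kdr, named after its values were seen, were Gdf15, Cd300lf and Gadd45g, at distances of 1.21, 1.24 and 1.59. Gdf15, a stress-induced cytokine, had log2 ratios of 2.99 with Lamtor1 loss, 2.98 with Torin1 and 6.97 in M1. Nearest to the upstream probe were Acbd4, Srrd and Barx2, at 0.03, 0.03 and 0.04. Nearest to the brightest Igf1 probe were Picalm, which acts in clathrin-mediated uptake, Cenpe, a kinetochore motor, and Itpk1, an inositol phosphate kinase, at 0.09, 0.17 and 0.17.

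Promoter sequence was set beside the receptors because Flt1 and the downstream Kdr probe differed in opposite directions. RefSeq windows of 250 bases before the start were held for 8 of the 10 genes, in 9 windows with 2 for Pdgfa, on GRCm38.p6. The patterns searched on both strands were TTC and GAA separated by any 4 bases, the form bound by STAT6, the factor that IL-4 activates, ACGTG, the core of hypoxia response elements, and GGGCGG, a GC box. They were held by 5.85%, 16.6% and 32.7% of 32851 windows of that length, and by 0, 0 and 7 of the 9 member windows. The GC box was not in the windows of Igf1 and Pdgfc. Capitals mark GC boxes, written as CCGCCC where they lie on the other strand.

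Flt1, GRCm38.p6 chr5:147726012-147726261, minus strand: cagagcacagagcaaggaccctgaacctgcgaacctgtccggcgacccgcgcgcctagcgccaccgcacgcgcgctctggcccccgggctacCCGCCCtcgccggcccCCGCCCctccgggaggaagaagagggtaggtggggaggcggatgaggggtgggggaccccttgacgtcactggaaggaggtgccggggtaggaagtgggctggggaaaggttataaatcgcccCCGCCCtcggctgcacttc

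Kdr, GRCm38.p6 chr5:75978456-75978705, minus strand: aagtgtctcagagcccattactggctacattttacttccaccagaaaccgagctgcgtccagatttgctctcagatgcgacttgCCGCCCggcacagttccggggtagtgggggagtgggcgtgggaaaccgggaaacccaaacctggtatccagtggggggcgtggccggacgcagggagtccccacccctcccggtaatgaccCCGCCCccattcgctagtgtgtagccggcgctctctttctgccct

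The Flt1 window held 3 GC boxes and the Kdr window 2. These matches describe letters in the windows and were not tied to the array values.

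Tgfb1, an inhibitor of inflammation and driver of matrix deposition, differed little among the IL-4 conditions. Its probe, spotted 10 times, read 5.21 in M1, 15.8 in M2, 17.4 in Lamtor1-deficient M2 and 21.0 in Torin1-treated M2. The log2 ratio with Lamtor1 loss was 0.13, within 3 technical SDs, and that with Torin1 was 0.41, beyond 3 technical SDs but short of 2-fold. That SD describes single spots, so it does not measure the error of a mean over 10 spots. M1 was 3.03-fold below M2.

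Hbegf, the ligand of the EGF receptor on this list, read 1.79 in M1, 0.735 in M2, 1.04 in Lamtor1-deficient M2 and 1.09 in Torin1-treated M2. M1 was 2.44-fold above M2 on this scale, but its log2 ratio of 1.29 became 0.47 when arrays were shifted to their medians. The log2 ratios with Lamtor1 loss and Torin1 were 0.50 and 0.57, and these 2 arrays differed by less than the technical SD. The raw signals of Hbegf lay between 437 and 557 on all arrays.

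**Figure D4:**
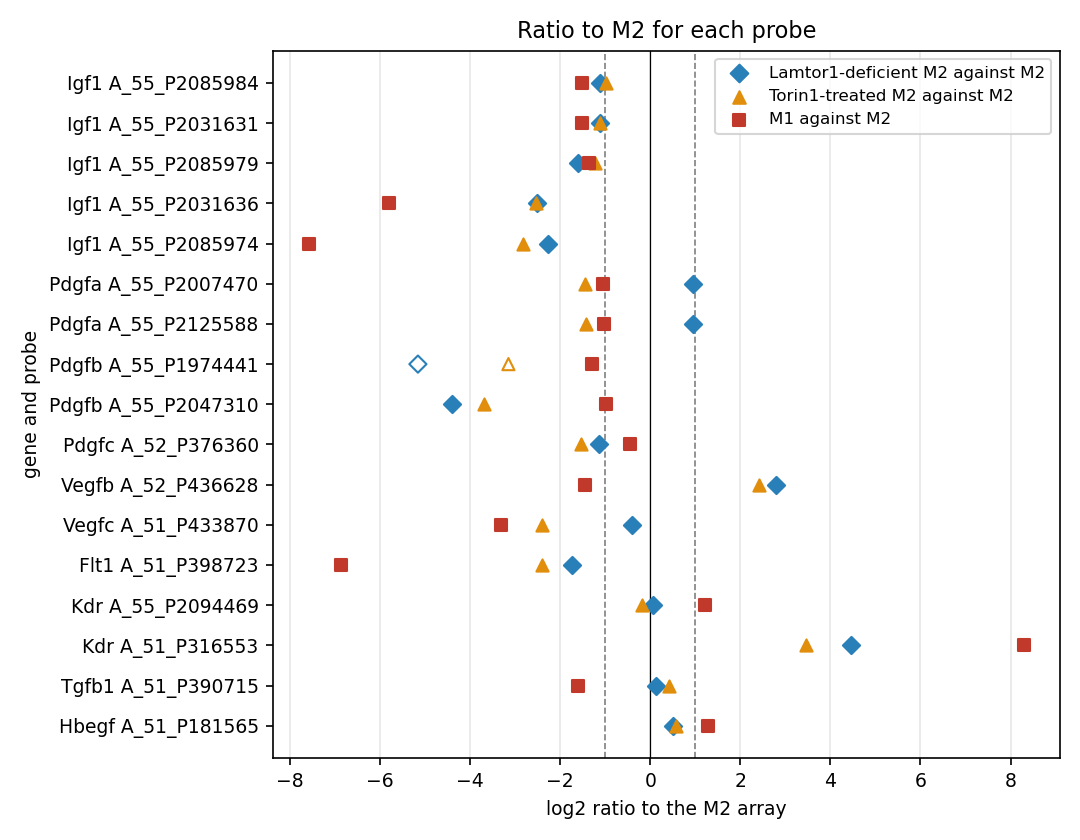
Log2 ratio to the M2 array (x axis) for each probe of the 10 genes other than the dim Flt1 probe (y axis); diamonds are Lamtor1-deficient M2, triangles Torin1-treated M2 and squares M1, open where the probe was well above background on 1 of the 2 arrays, with dashed lines at 2-fold and no error bars because there are no replicates. Vegfb lies to the right for Lamtor1 loss and Torin1, Pdgfb to the left, and the probes of Kdr lie apart.

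Receptors, binding proteins and other genes of the same pathways were described by 6 lists. They held 57 genes, with Ltbp2 in both TGF-β lists but counted once, and 56 of the genes were on the array. Of these, 18 differed at least 2-fold with Lamtor1 loss, 9 higher and 9 lower, 20 with Torin1, 9 higher and 11 lower, and 35 in M1, 14 higher and 21 lower. Their median log2 ratios were 0.05, 0.09 and -0.26. These shares are to be read beside the 17.5%, 26% and 49.8% of all genes. Leaving out genes that were not well above background on either array gave 17, 17 and 33.

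In the IGF axis, 5 of 13 genes differed 2-fold with Lamtor1 loss, 7 with Torin1 and 8 in M1, beside 17.5%, 26% and 49.8% of all genes. Without genes that were dim on both arrays compared, the counts were 5, 5 and 7. The receptor Igf1r had a log2 ratio of -1.28 with Lamtor1 loss, 0.06 with Torin1 and -2.21 in M1, the last being -1.33 after normexp correction. Insr, the insulin receptor, had a log2 ratio of -3.32 in M1. It was -1.79 after normexp background correction and -1.48 when its probes were averaged. The adaptor Irs1 was at least 5.55-fold lower in M1.

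Binding proteins hold IGF-1 in the extracellular fluid, and they differed from each other. Igfbp2 had log2 ratios of -0.05 with Lamtor1 loss, -0.53 with Torin1 and 0.43 in M1, Igfbp7 had 0.90, 1.06 and 0.57, and Igfbp1 was not well above background on any array. Igfbp4 had log2 ratios of -3.70 with Lamtor1 loss, -1.70 with Torin1 and -1.76 in M1. Igfbp5 had a log2 ratio of 0.87 with Lamtor1 loss against -4.96 with Torin1, and it was at least 56.7-fold lower in M1. Igfbp6 had a log2 ratio of 1.86 with Lamtor1 loss, was at least 9.57-fold lower with Torin1, and had 1.93 in M1. After normexp background correction Igfbp4 had -2.46 with Lamtor1 loss, and Igfbp5 and Igfbp6 had -3.81 and -1.48 with Torin1. Igfbp5 and Igfbp6 thus lay on opposite sides of M2 with Lamtor1 loss and with Torin1.

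Of the PDGF axis, 1 of 5 genes differed 2-fold with Lamtor1 loss, none with Torin1 and 3 in M1. Pdgfra, receptor for the A, B and C chains and itself a fibroblast marker, had log2 ratios of 1.45 with Lamtor1 loss and -0.58 with Torin1 and was at least 3.76-fold lower in M1. Pdgfrb had 0.30, -0.31 and -0.43. Furin, a protease that cleaves growth factor precursors, and Pdgfrl had log2 ratios of 1.40 and 1.38 in M1.

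In the VEGF axis, 2 of 5 genes differed 2-fold with Lamtor1 loss, 1 with Torin1 and 5 in M1. Figf, the older symbol of the gene for VEGF-D, had a log2 ratio of 2.01 with Lamtor1 loss and -0.96 with Torin1, or 1.33 and -1.67 with outlier spots kept, and was at least 2.68-fold lower in M1. Pgf, the placental growth factor that binds FLT1, had log2 ratios of -0.45, -0.66 and 3.31. Flt4, the receptor of VEGF-C, was not well above background on any array, though its ratios count among those past 2-fold.

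The neuropilins, co-receptors of VEGF, were measured on all arrays. Nrp1 had log2 ratios of -0.72 with Lamtor1 loss, -0.70 with Torin1 and -3.20 in M1. Nrp2 had -0.10, -0.16 and -1.19, and its M1 value turned to 0.10 when its probes were averaged.

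In the TGF-β axis, 5 of 18 genes differed 2-fold with Lamtor1 loss, 6 with Torin1 and 13 in M1. The receptor Tgfbr1 had log2 ratios of -0.24, 0.90 and -2.86. Tgfbr2, the ligand-binding receptor, had 1.50, 0.88 and -1.69, with the last turning to 1.06 when its probes were averaged. Co-receptor Eng had -2.42 with Lamtor1 loss, -0.54 with Torin1 and -1.35 in M1, and Acvrl1, a type I receptor of endothelium, had -1.54, -2.53 and 0.76.

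Latent TGF-β is held by Ltbp proteins and, on cell surfaces, by the product of Lrrc32. Ltbp1 was lower with Torin1 by 1.54 on the log2 scale, and Ltbp3 was lower in M1 by 5.21. Lrrc32 had log2 ratios of -1.18 with Lamtor1 loss, 0.77 with Torin1 and -2.93 in M1. The inhibitory Smad6 had 0.24, 2.44 and 4.44, the last 2 being 1.40 and 3.04 after normexp correction.

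Among 6 genes known to be induced by TGF-β, 4 differed 2-fold with Lamtor1 loss, all of them lower, 5 with Torin1, 3 higher and 2 lower, and 4 in M1, 1 higher and 3 lower. Tgfbi had log2 ratios of -6.59 with Lamtor1 loss, -5.91 with Torin1 and -2.99 in M1. Pmepa1 had -2.04 and -1.56 and was at least 16.2-fold lower in M1, where its log2 ratio after normexp correction was -2.09. Ctgf had -1.77 with Lamtor1 loss, 2.38 with Torin1 and -0.11 in M1. The list thus held genes on both sides of M2 with Torin1 and in M1, while Tgfb1 itself had log2 ratios of 0.13, 0.41 and -1.60.

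In the EGF axis, 1 of 10 genes differed 2-fold with Lamtor1 loss, 2 with Torin1 and 2 in M1, and 5 of the 10 were well above background on at least 1 of M1 and M2. Egfr, the receptor of HB-EGF, had log2 ratios of 1.06 with Lamtor1 loss, -0.66 with Torin1 and -1.04 in M1, the last 2 turning to 0.026 and 0.51 when its probes were averaged. Erbb4 was not well above background on any array. Adam17, a protease that sheds HB-EGF, had log2 ratios of -0.04, 1.53 and 1.27.

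**Figure D5:**
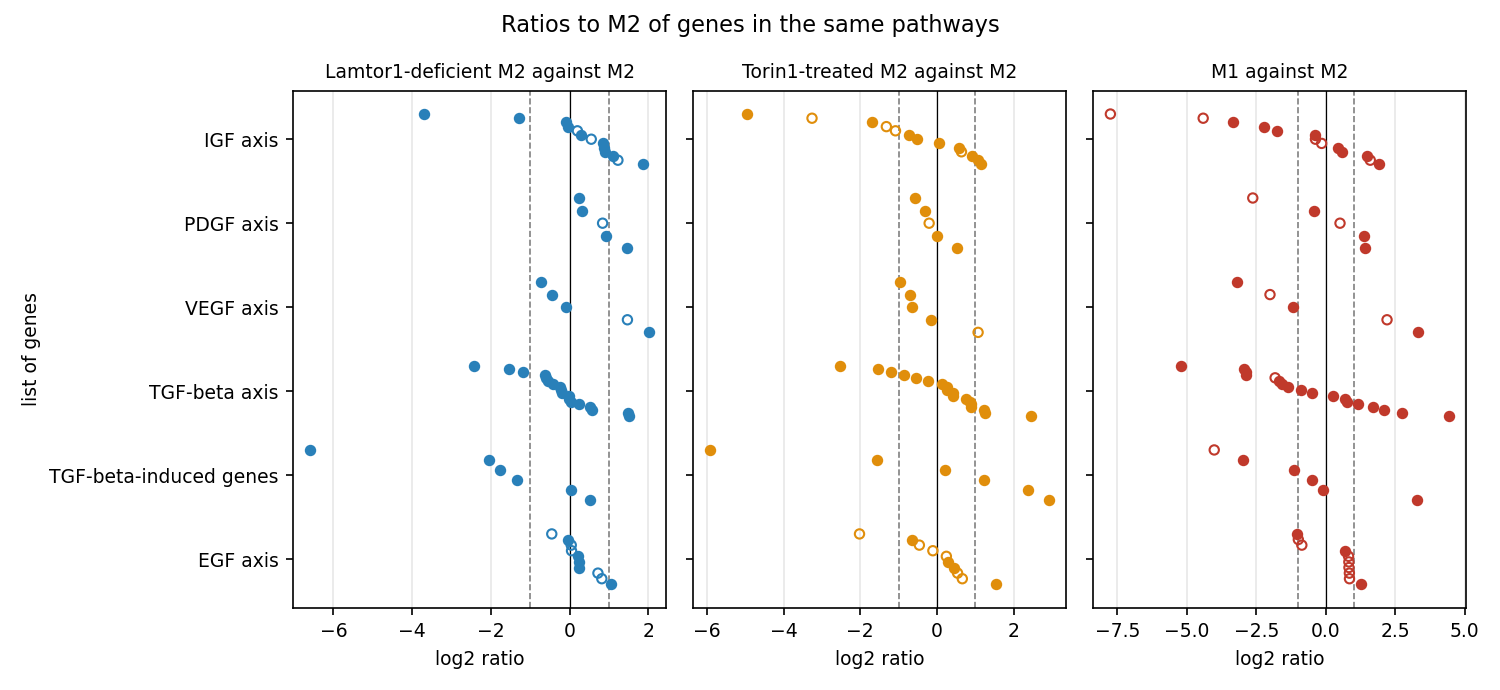
Log2 ratio to the M2 array (x axis) of each gene in the 6 pathway lists (y axis), with 1 panel per comparison, 1 point per gene by its brightest probe, open where the probe was not well above background on both arrays, and dashed lines at 2-fold; the x axes differ between panels. Tgfbi, at -6.59 and -5.91, is the lowest point of the Lamtor1 and Torin1 panels.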

How the data were processed

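The authors deposited spot intensity from 4 Agilent 1-colour mouse arrays (1 per condition): the processed signal, corrected for background and spatial trends by Feature Extraction (10.7.3.1 per the file headers, 10.5.1.1 per the labels) and not normalized between arrays. A deposited series table holds the same intensities to within 0.497%. Control spots and marked outlier spots were left out, spots of a probe averaged, a raw threshold of 1.0 applied, arrays divided by their 75th percentile over non-control probes, and log2 taken. Probes not well above background were kept in counts; a probe above it on 1 array gives a bound, "at least". Genes use the probe with the highest mean over arrays. With 1 array per condition the precision is limited by their number and no p-value was computed. Named are all members, receptors, up to 3 of the largest differences per pathway list and comparison, and nearest profiles. Igfbp1, Igfbp2 and Igfbp7 were named outside this rule. A gene the rule names is not reported here. The members and lists, with cell type markers, were chosen with earlier results of these data known. RefSeq (GRCm38.p6) gave names for 10 of 10 members. The procedure was tested on simulated data. Alternatives were other scalings, normexp with offset 50, floors, filters, outliers kept, probe averaging, a 3-fold threshold and the series table. Calculations used Python 3.11.15, NumPy 2.4.6, pandas 2.3.3, R 4.3.3 and limma 3.58.1.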

Additional observations from a re-analysis of the deposited data

Results flagged for a closer look

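Of the 10 genes and the named pathway genes with a probe above background on each array of IL-4-treated cells, 9 lay on opposite sides of M2 with Lamtor1 loss and with Torin1, each by more than 3 technical SDs. That SD is a median over repeatedly spotted probes, and dim probes vary more: spots of Pdgfra, Figf and Egfr on the Torin1 array had SDs of 0.154, 0.159 and 0.176. Pdgfrb, with log2 ratios of 0.30 and -0.31, and Irs1, with 0.28 and -0.72, have dim probes with 1 spot per array, so their opposite signs are not clear of spot error. The sign of Egfr with Torin1 also depends on the probe: its log2 ratio of -0.66 was 0.026 when probes were averaged. Both ratios share the M2 array, and the difference was not tested. Apart from receptors, the pathway genes in this pool were picked for large differences in these same data. The share of all genes that meets the rule was not computed, so the 9 genes cannot be read as particular to these pathways. For Pdgfa the log2 ratio with Torin1 minus that with Lamtor1 loss was -2.41. The same difference was -2.04 for Pdgfra, -0.61 for Pdgfrb, -1.72 for Egfr, -5.83 for Igfbp5, -0.998 for Irs1 and -2.98 for Figf, all higher with Lamtor1 loss. It was 1.95 for Lrrc32 and 4.15 for Ctgf, both higher with Torin1. The summed fibroblast markers, which include Pdgfra, were 56.7 with Lamtor1 loss and 15.5 with Torin1, and their part was not tested.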

How the results depend on the processing

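Counts of the 10 genes changed 2-fold stayed within 1.5 times of 5, 7 and 8 under the scalings, background correction, floor, filters, outlier and probe settings tried, and with the other Kdr probe, which was added after the data had been seen. At 3-fold they were 3 with Lamtor1 loss, 4 with Torin1 and 3 in M1. Of the 56 pathway genes, 7, 9 and 25 passed 3-fold, where 9.05%, 12.6% and 32.4% of all genes did. With probes averaged, the M1 log2 ratios reversed to 0.10 for Nrp2, 1.06 for Tgfbr2 and 0.51 for Egfr; the cause was not tested. That setting also brought Flt1 to -0.40 with Lamtor1 loss, -0.71 with Torin1 and -2.25 in M1, since it includes the dim probe. Averaging probes brought Adam17 to 0.47 with Torin1 and 0.22 in M1. Normexp ended the 2-fold difference of Ltbp1 with Torin1 (-0.50) and, in M1, of Pdgfra (-0.52), Figf (-0.19), Irs1 (-0.86) and Egfr (-0.03), and gave smaller log2 ratios for Igfbp4 with Lamtor1 loss (-2.46), Igfbp5 (-3.81) and Igfbp6 (-1.48) with Torin1, and Igfbp5 (-3.90) and Pmepa1 (-2.09) in M1, so the bounds in the text hold for the scanner's own background correction. Normexp left 1065 genes higher and 962 lower with Lamtor1 loss, against 2052 and 2009, and 1381 and 1680 with Torin1, against 3303 and 2729. The shift to the median left 3590 higher and 7385 lower in M1, against 7069 and 4470. No paired analysis was possible because each condition has 1 array, so no array could be left out either, including the M2 array with its high neutrophil markers. Signals below about 20 limit Flt4, Erbb4 and the second Flt1 probe.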
